A study of Homo sapiens with 6 samples.

Results

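The mitochondrial ribosomal protein genes are the nuclear genes that encode the protein part of the ribosome inside mitochondria. They were taken by symbol, MRPL or MRPS followed by a number and at most 1 letter from A to C. This gave 77 of the 15024 genes in the deposited table, of which 48 carry an MRPL symbol, for the large subunit, and 29 an MRPS symbol, for the small subunit. RNA was sequenced from MLL3-null MDA-MB-231 cells. MDA-MB-231 is an established human cell line from a triple-negative breast cancer. MLL3 is a histone methyltransferase encoded by KMT2C. All cells were treated with 10 µM forskolin, an activator of adenylyl cyclase, for 14 days and were sorted by flow cytometry. The CD44+ CD104high population, which the submitters call hybrid EMT, had 3 libraries. The CD44+ CD104-/low population, which they call mesenchymal and which is written CD104low here, also had 3. EMT is the epithelial-to-mesenchymal transition, and CD104 is integrin beta-4. Both populations are MLL3-null and forskolin-treated, and wild-type cells were not analysed here. The labels number biological replicates and name no separate cultures or batches, so each p-value reflects the spread among these libraries. The labels do not say whether the MLL3-null cells are 1 clone.

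The mitochondrial ribosome translates the messenger RNAs of the mitochondrial genome, which encode core membrane subunits of the respiratory chain and of ATP synthase. Its ribosomal RNAs come from the mitochondrial genome, while all of its proteins are made in the cytosol from nuclear genes and imported. The small subunit binds the messenger RNA and decodes it, and the large subunit forms the peptide bond and releases the new chain beside the inner membrane. Some of its proteins descend from bacterial ribosomal proteins and others are found only in mitochondria.

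Per the submitters' labels the populations differ in surface CD104, and the sorted gene followed them. ITGB4, which encodes CD104, averaged 16463 ± 2617 scaled reads in CD104high libraries against 1699 ± 503 in CD104low libraries, and CD44 averaged 25592 ± 3169 in CD104high against 24650.5 ± 1232 in CD104low. Errors beside means are SDs over 3 libraries. Scaled reads are the deposited values, which behave as read counts divided by 1 factor per library, and the listed genes held between 49791498 and 60069719 recovered reads per library. VIM, the mesenchymal intermediate filament gene vimentin, averaged 21251 in CD104high and 20323 in CD104low. ERBB2, a receptor gene that is not amplified in triple-negative tumours, averaged 8165 in CD104high and 6519 in CD104low. ESR1 and PGR were not found by symbol among the listed genes. Of 6 markers of other cell types, LAPTM5, a blood-cell gene, averaged 447 scaled reads in CD104high and 199 in CD104low. CD14, a monocyte gene, averaged 330 in CD104high and 176 in CD104low, and PECAM1, an endothelial gene, 5.82 in CD104high and 9.90 in CD104low. For LAPTM5 and CD14 all CD104high libraries lay above all CD104low libraries, as in 27.4% of genes tested. Both were called higher in CD104high by the test described below, as were 21.8% of genes tested. PTPRC, CD3E and HBB were not found by symbol among the listed genes. The part of other cell types in the results below was not tested.

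Mitochondrial ribosomal protein genes were lower in CD104high. By limma on log2(value + 1), with a Benjamini-Hochberg adjusted p below 0.05 over 14420 genes tested, 60 of the 77 members were lower in CD104high, none was higher and 17 did not pass. All 77 members were tested. Over all genes tested, 21.6% were called lower and 21.8% higher, so 77.9% of members were called in a direction that took 21.6% of genes. The log2 fold change was negative for 76 members, against 48.3% of genes tested. The median log2 fold change of the members was −0.49, with an interquartile range of −0.63 to −0.30, and that of all genes tested was 0.02. In 66 members all 3 CD104high libraries lay below all 3 CD104low libraries, an order seen in 26.9% of genes tested. No member had the opposite order, which 27.4% of genes tested had. The falls were mostly small. 37 members were called and at least 0.5 lower on the log2 scale, which held for 8.41% of genes tested, and 3 members were at least 1 lower. The authors' deposited table gave 62 members an adjusted p below 0.05 and a lower value in CD104high, against 22.6% of the genes with an adjusted p there, and 60 of them were those called here. In sorted bulk samples, fewer cells of a type and less RNA per cell cannot be told apart.

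**Figure D1:**
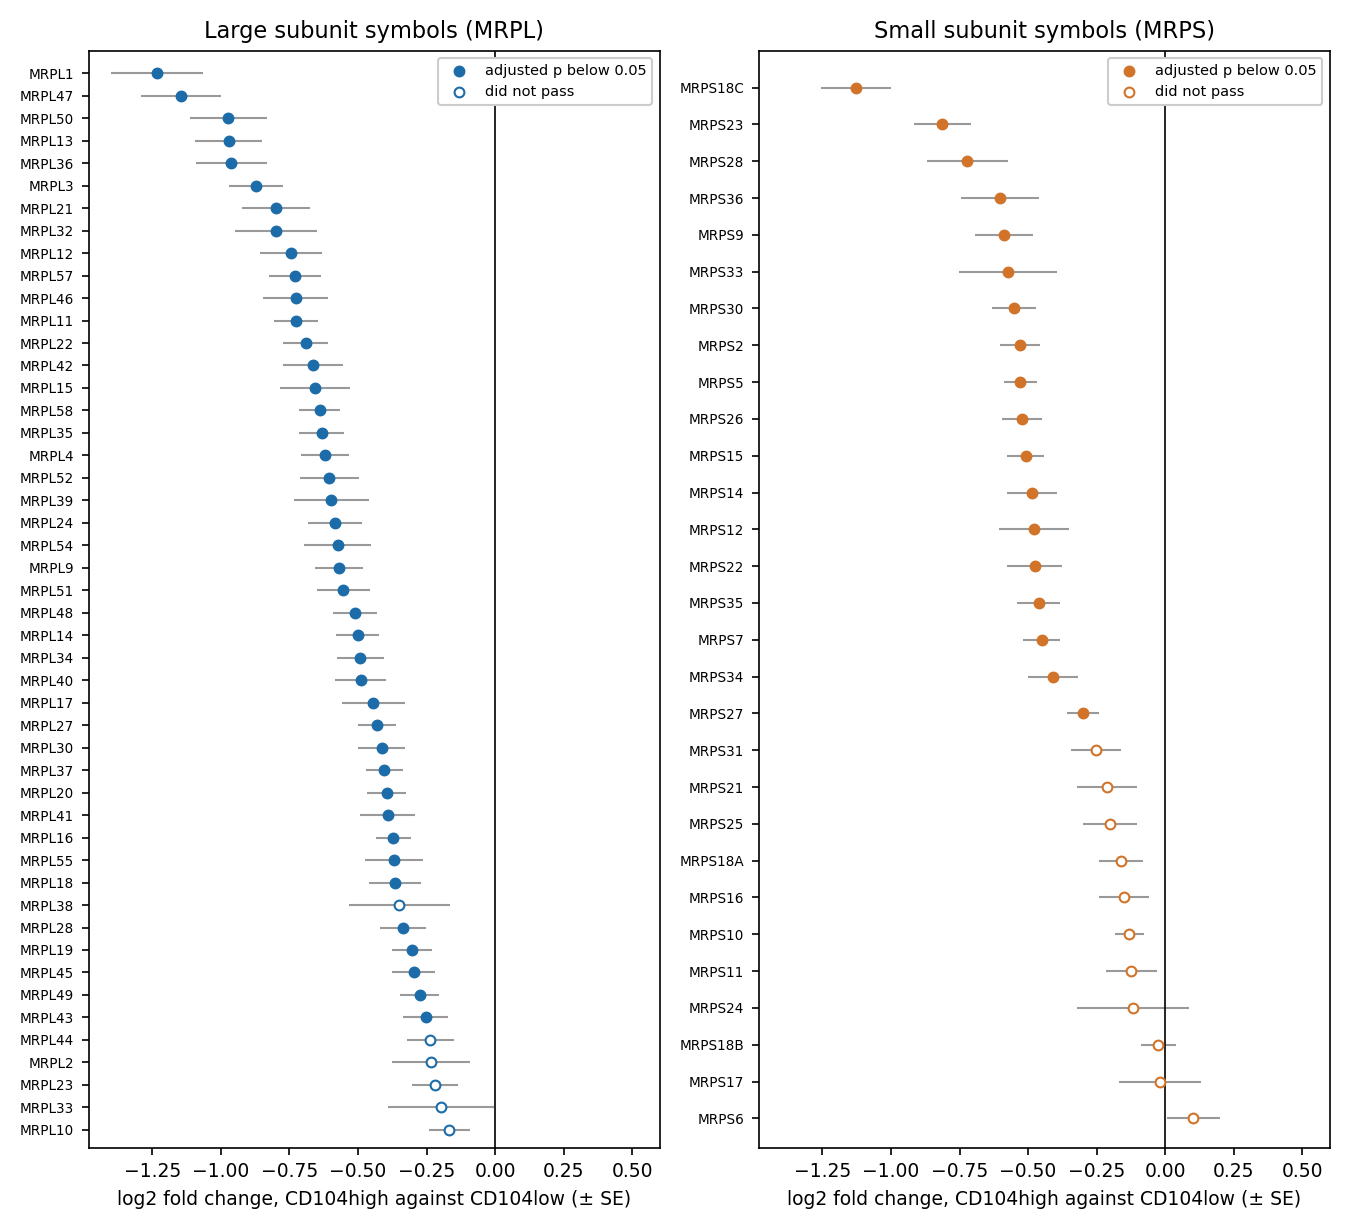
Log2 fold change of each member in CD104high against CD104low from limma, with its standard error, for the 48 MRPL genes (left) and the 29 MRPS genes (right). Filled points passed an adjusted p of 0.05. All MRPL points lie below 0, from −1.23 for MRPL1 to −0.17 for MRPL10, and in MRPS the points run from −1.13 for MRPS18C to 0.10 for MRPS6.

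The large subunit had the larger share of calls. Of 48 MRPL genes, 42 were lower and 6 did not pass, with a median log2 fold change of −0.53 and a range of −1.23 to −0.17. Of 29 MRPS genes, 18 were lower and 11 did not pass, with a median of −0.46 and a range of −1.13 to 0.10. The libraries of CD104high and CD104low did not overlap in 46 of 48 MRPL genes and in 20 of 29 MRPS genes. The difference between the shares of the subunits was not tested.

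A few symbols do not match the place of the protein. MRPS30 and MRPS18A are proteins of the large subunit, and MRPS36 is a subunit of the 2-oxoglutarate dehydrogenase complex and no ribosomal protein. Sorted by place, 43 of 50 large-subunit genes and 16 of 26 small-subunit genes were lower, with median log2 fold changes of −0.53 for the large subunit and −0.46 for the small. Of the large-subunit proteins with a bacterial counterpart, 26 of 30 were lower with a median of −0.54, and of those found only in mitochondria, 17 of 20 with a median of −0.53. In the small subunit 9 of 16 genes with a bacterial counterpart were lower with a median of −0.46, and 7 of 10 found only in mitochondria with a median of −0.44. After the correction for length and GC content described below, the large-subunit classes had 24 of 30 lower with a median of −0.41 and 15 of 20 with −0.35. The small-subunit classes then had 8 of 16 lower and 6 of 10 lower, each with a median of −0.27.

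The sum over the 48 MRPL genes was 121528, 119259 and 132101 scaled reads in CD104high replicates 1, 2 and 3, and 198178, 160992 and 192875 in CD104low replicates 1, 2 and 3. The sum over the 29 MRPS genes was 65032, 63238 and 67085 in CD104high, and 89132, 78838 and 87472 in CD104low. In both sums all CD104high libraries lay below all CD104low libraries, and CD104low replicate 2 was the lowest of its population. The ratio of CD104high to CD104low means was 0.675 for MRPL and 0.765 for MRPS.

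The ratio between the sums by symbol was computed in each library, so MRPS30, MRPS18A and MRPS36 count with MRPS in it. Per kilobase of transcript, the ratio of the MRPL sum to the MRPS sum was 2.57, 2.57 and 2.71 in CD104high and 3.04, 2.77 and 3.01 in CD104low. In scaled reads it was 1.87, 1.89 and 1.97 in CD104high and 2.22, 2.04 and 2.20 in CD104low. On both scales every CD104high library had a lower ratio than every CD104low library, and CD104low replicate 2 was the lowest of its population. Among single genes tested, 26.9% showed that order, and the difference in the ratio was not tested.

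**Figure D2:**
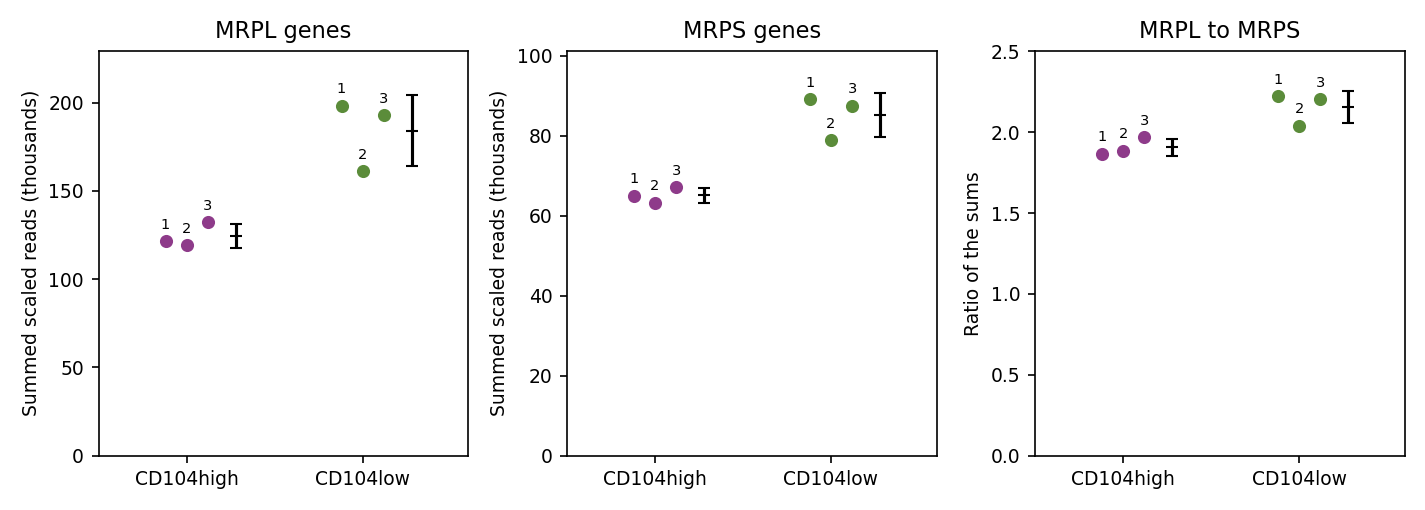
Summed scaled reads of the MRPL genes (left) and the MRPS genes (middle), and the ratio of the sums (right), per library with replicate numbers. The dash and bar beside the points give the mean and SD of 3 libraries. The CD104high libraries sit below the CD104low libraries in each panel.

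CD104low replicate 2 stood apart in the members. It was the lowest CD104low library for 70 of the 77, against 43.0% of genes tested and 76.5% of the genes called lower in CD104high. This library also had the highest ITGB4 of its population, 2273 scaled reads, against 1492 and 1333 in CD104low replicates 1 and 3. A link between its ITGB4 level and its member levels was not tested. Relative to each gene's CD104low mean, the median member lay at −0.50, −0.52 and −0.42 on the log2 scale in CD104high replicates 1, 2 and 3, and at 0.08, −0.15 and 0.06 in CD104low replicates 1, 2 and 3. Every CD104high library therefore lay below every CD104low library in the median member as well. Without CD104low replicate 2 the median log2 fold change was −0.55, and 61 members were called lower, against 22.2% of genes tested. The summed ratios were then 0.636 for MRPL and 0.737 for MRPS. CD104high replicate 3 was the highest CD104high library for 56 members, and the share of all genes tested for which it was highest was not computed.

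**Figure D3:**
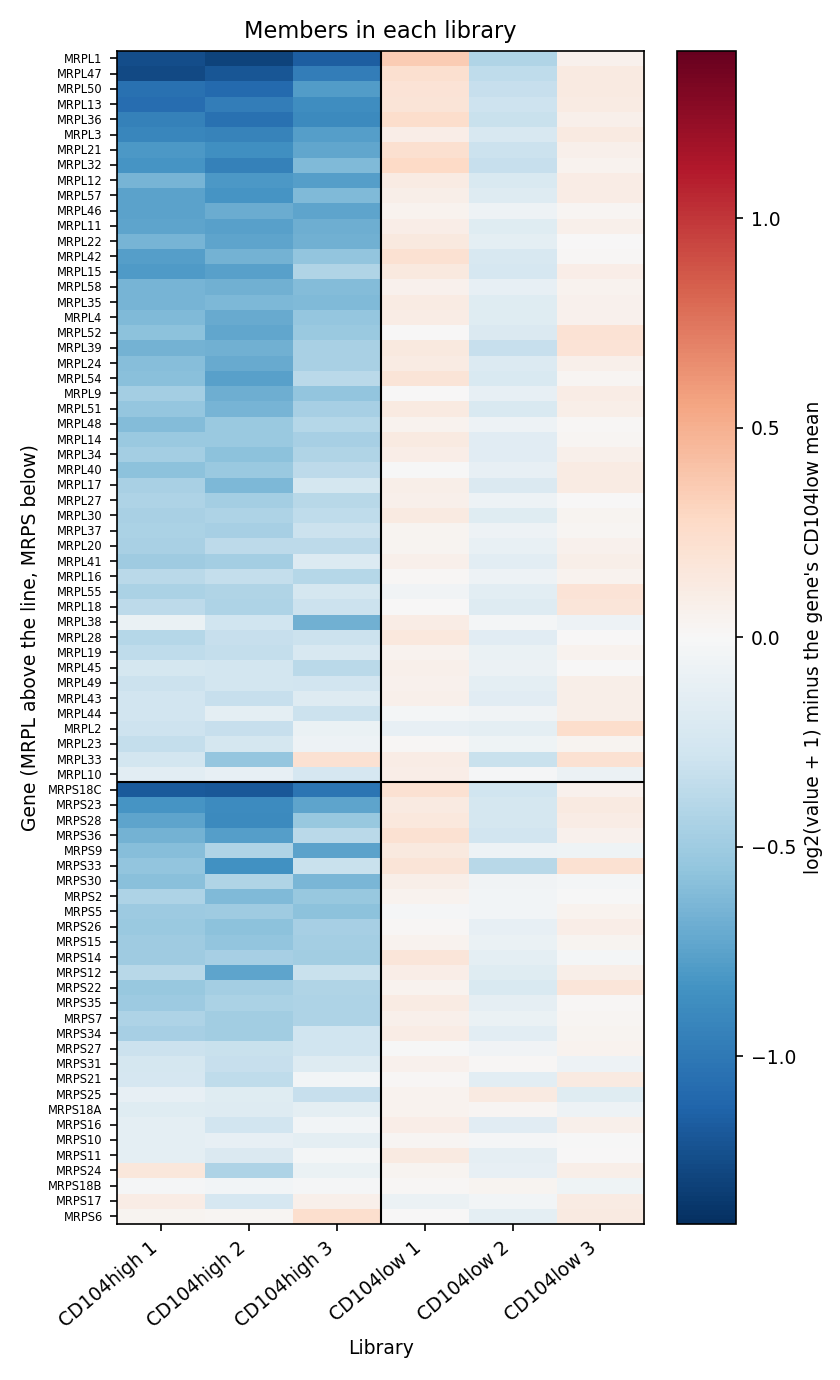
Log2(value + 1) of each member in each library, minus that gene's CD104low mean, with MRPL genes above the line, MRPS genes below it and members sorted by log2 fold change within each. Blue is lower and red higher. The 3 CD104high columns are blue for most members, and of the CD104low columns replicate 2 is the lowest for 70 of 77 members.

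Among large-subunit genes, MRPL1 had the largest fall. It encodes the protein of the L1 stalk, the mobile arm through which spent tRNA leaves (ENSG00000169288.18, GRCh38 chr4:77862520-77952790). It had 1433, 1375 and 1515 scaled reads in CD104high, against 4327, 2535 and 3532 in CD104low. All 3 CD104high libraries were close together and far under the lowest CD104low library, replicate 2. The log2 fold change was −1.23 ± 0.17 (SE, limma adjusted p = 0.000848), a level 2.35 times lower.

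MRPL47 encodes the counterpart of bacterial uL29, a protein beside the exit of the peptide tunnel (chr3:179588285-179604654). It had 2708, 2836 and 3324 scaled reads in CD104high, against 7600, 5105 and 7120 in CD104low. The populations did not overlap, and the log2 fold change was −1.15 ± 0.15 (limma adjusted p = 0.000686). MRPL36 encodes the counterpart of bacterial bL36, a very small protein. It had 2357, 2209 and 2457 scaled reads in CD104high, against 5403, 3669 and 4774 in CD104low, with a log2 fold change of −0.96 ± 0.13 (limma adjusted p = 0.000819). CD104low replicate 2 was again nearest to CD104high.

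MRPL3 encodes a protein that reaches towards the peptidyl transferase centre, where the peptide bond is formed. It had 3546, 3481 and 3914 scaled reads in CD104high, against 7103, 5717 and 7298 in CD104low, with a log2 fold change of −0.87 ± 0.10 (limma adjusted p = 0.000479). MRPL50, found only in mitochondrial ribosomes, had 1574, 1519 and 1882 scaled reads in CD104high, against 3705, 2593 and 3543 in CD104low. MRPL13, the counterpart of bacterial uL13, had 2764, 2965 and 3172 scaled reads in CD104high, against 6589, 4740 and 6282 in CD104low. Neither gene overlapped between the populations, and both had a log2 fold change of −0.97, with standard errors of 0.14 and 0.12 and limma adjusted p-values of 0.00114 and 0.000633.

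MRPL14 encodes a protein at the face that meets the small subunit, which the assembly factor MALSU1 binds before the subunits join. It had the highest level per length of all members, 7534 scaled reads per kilobase of transcript in CD104high and 10696 in CD104low. Its scaled reads were 7111, 7153 and 7412 in CD104high, against 11154, 9176 and 10442 in CD104low, with a log2 fold change of −0.50 ± 0.08 (limma adjusted p = 0.00147). The lowest level per length was that of MRPL38, at 77.4 per kilobase in CD104high and 97.5 in CD104low.

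The stalk that recruits translation factors and the exit of the peptide tunnel are known functional sites of the large subunit. MRPL12, the tip protein of that stalk, which is also known to bind the mitochondrial RNA polymerase, had 746, 669 and 684 scaled reads in CD104high, against 1268, 1008 and 1259 in CD104low. Its log2 fold change was −0.74 ± 0.11 (limma adjusted p = 0.00134). MRPL11, at the base of the same stalk, had a log2 fold change of −0.73 and was called, while MRPL10, which holds MRPL12 in place, had −0.17 (limma adjusted p = 0.101) and did not pass.

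MRPL45 anchors the ribosome to the inner membrane at the exit of the peptide tunnel. It had 1685, 1666 and 1533 scaled reads in CD104high, against 2106, 1883 and 2010 in CD104low, with a log2 fold change of −0.30 ± 0.08 (limma adjusted p = 0.0154). This was among the smaller falls that passed, and the call was lost in 4 of 21 alternative settings. Around the same exit, MRPL22 had a log2 fold change of −0.69 and MRPL24 of −0.58, both called, and MRPL23 had −0.22 (limma adjusted p = 0.0620) and did not pass.

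MRPL58 is a peptidyl-tRNA hydrolase that can free stalled chains and is built into the large subunit. It had 1777, 1748 and 1831 scaled reads in CD104high, against 2911, 2574 and 2874 in CD104low, with a log2 fold change of −0.64 ± 0.07 (limma adjusted p = 0.000496). MRPS30, a large-subunit protein despite its symbol, had 1981, 2212 and 1896 scaled reads in CD104high, against 3134, 2867 and 2901 in CD104low, with a log2 fold change of −0.55 ± 0.08 (limma adjusted p = 0.00116). In neither gene did the populations overlap.

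The MRPL genes that did not pass were MRPL38 (log2 fold change −0.35), MRPL44 (−0.24), MRPL2 (−0.23), MRPL23, MRPL33 (−0.20) and MRPL10. MRPL44, a protein with a fold of the ribonuclease III family, averaged 1142 ± 72.6 scaled reads in CD104high and 1345 ± 66.9 in CD104low and missed the threshold narrowly (limma adjusted p = 0.0507). MRPL33, the counterpart of bacterial bL33, averaged 2059 ± 555 in CD104high and 2334 ± 427 in CD104low, and its libraries overlapped.

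Among small-subunit genes, MRPS23, a protein found only in mitochondria, had 2784, 2681 and 2942 scaled reads in CD104high, against 5351, 4154 and 5359 in CD104low, with a log2 fold change of −0.81 ± 0.10 (limma adjusted p = 0.000686). MRPS9, the counterpart of bacterial uS9, whose tail reaches the tRNA site, had 1107, 1251 and 997 scaled reads in CD104high, against 1840, 1595 and 1601 in CD104low. Its log2 fold change was −0.59 ± 0.11 (limma adjusted p = 0.00279), and the populations did not overlap. MRPS28, also a small-subunit protein, had 357, 323 and 413 scaled reads in CD104high, against 664, 502 and 641 in CD104low, with a log2 fold change of −0.72 ± 0.15 (limma adjusted p = 0.00495).

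MRPS33, found only in mitochondrial ribosomes, had 2114, 1721 and 2505 scaled reads in CD104high, against 3523, 2372 and 3591 in CD104low. CD104high replicate 3 lay above CD104low replicate 2, so the populations overlapped, and the log2 fold change of −0.57 ± 0.18 passed with a limma adjusted p of 0.0308. That call was lost in 6 of 21 alternative settings. MRPS36, the 2-oxoglutarate dehydrogenase subunit, had 1166, 1080 and 1425 scaled reads in CD104high, against 2134, 1532 and 1923 in CD104low, with a log2 fold change of −0.60 ± 0.14 (limma adjusted p = 0.00967). It did not overlap between the populations, and its call was lost in 3 of 21 alternative settings, those with a correction for length and GC content.

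Other small-subunit genes lay nearer the middle. MRPS12, whose bacterial counterpart helps to set decoding accuracy, had a log2 fold change of −0.48, MRPS5 and MRPS2, both with bacterial counterparts, had −0.53, and MRPS27, an RNA-binding pentatricopeptide repeat protein, had −0.30. All 4 were called. MRPS10, the counterpart of bacterial uS10, had the highest small-subunit level per length, 4095 scaled reads per kilobase in CD104high and 4485 in CD104low. It had 8582, 8749 and 8590 scaled reads in CD104high, against 9660, 9324 and 9405 in CD104low. Its libraries did not overlap, but the log2 fold change was only −0.13 ± 0.05 and did not pass (limma adjusted p = 0.0754).

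The genes MRPS18A, MRPS18B and MRPS18C are 3 paralogs of the bacterial S18 gene. Their products take different places in the mitochondrial ribosome, MRPS18A in the large subunit and the others in the small. In the class counts above, only MRPS18C was counted as having a bacterial counterpart. MRPS18A and MRPS18B were counted there with the proteins found only in mitochondria. MRPS18C had 816, 807 and 903 scaled reads in CD104high, against 2134, 1516 and 1917 in CD104low, with a log2 fold change of −1.13 ± 0.13 (limma adjusted p = 0.000464). MRPS18A had 988, 986 and 1015 in CD104high, against 1157, 1132 and 1058 in CD104low, with a log2 fold change of −0.16 (limma adjusted p = 0.133). MRPS18B had 2312, 2263 and 2301 in CD104high, against 2362, 2394 and 2242 in CD104low, with a log2 fold change of −0.02 (limma adjusted p = 0.781).

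The libraries of MRPS18C were far apart between the populations, those of MRPS18A did not overlap but were close, and those of MRPS18B overlapped. Within each library, the log2 level of MRPS18C minus that of MRPS18B was −1.50, −1.49 and −1.35 in CD104high and −0.15, −0.66 and −0.23 in CD104low. The difference between the populations was −1.10, with an exact two-sided permutation p of 0.1, the smallest that 3 against 3 libraries allow. For MRPS18C against MRPS18A the difference was −0.96, and for MRPS18A against MRPS18B −0.14, each also at an exact permutation p of 0.1. These pairs and the next were chosen with their values known.

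MRPL46 and MRPS11 start head to head on chromosome 15, with start sites 34 bases apart in GENCODE 29 (88467419 and 88467453). MRPL46 averaged 213 ± 3.84 scaled reads in CD104high and 353 ± 15.6 in CD104low and was called with a log2 fold change of −0.73. MRPS11 averaged 1338 ± 82.4 in CD104high and 1460 ± 131 in CD104low, its libraries overlapped, and its log2 fold change of −0.12 did not pass (limma adjusted p = 0.310). The difference between the changes was −0.60 (exact two-sided permutation p = 0.1, the smallest possible).

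The other MRPS genes that did not pass were MRPS31 (log2 fold change −0.25), MRPS21 (−0.21), MRPS25 (−0.20), MRPS16 (−0.15), MRPS24 (−0.12), MRPS17 (−0.02) and MRPS6 (0.10). MRPS6, the counterpart of bacterial bS6, had the only positive value in this fit and averaged 1783 ± 146 scaled reads in CD104high and 1661 ± 152 in CD104low. Of the 17 members that did not pass, 6 share their strand with an annotated protein-coding gene, against 6 of the 60 that were called. MRPS6 lies with SLC5A3, MRPS17 with NIPSNAP2, MRPS16 with DNAJC9, MRPL33 with BABAM2, and MRPS24 with the readthrough gene URGCP-MRPS24. Among the called members, MRPS5 lies with ZNF514 and MRPL28 with TMEM8A, and MRPL12 and MRPL46 each share their strand with another annotated gene. Reads of such pairs can be assigned to either gene, so these values are uncertain in called members and others alike.

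Members are shorter than most genes tested, with a median longest transcript of 1727 bases against 3515. Their median GC content was 47.6% against 48.5%. Over all genes tested the log2 fold change rose with transcript length (Spearman rho 0.22, n = 14420 genes) and with GC content (0.19). Among the 77 members, rho was −0.01 for length and 0.24 for GC content. These are correlations over genes from the same 6 libraries and are given as descriptions. Of the 26 members lowest in GC, 22 were called lower with a median log2 fold change of −0.60, against 17 of 25 in the middle group with a median of −0.43 and 21 of 26 in the highest with −0.48.

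When each library was corrected for transcript length and GC content across all genes, with its mean kept, the falls shrank. The median of the members was then −0.35, of MRPL −0.40 and of MRPS −0.24. Of the members, 53 were called lower, 38 of them MRPL and 15 MRPS, against 20.9% of genes tested. Of the 60 members called without the correction, 52 were called with it. Those lost were MRPS36, MRPL39, MRPS33, MRPS14, MRPS22, MRPL18, MRPL19 and MRPL45, and MRPS25 was gained. MRPS36 had a corrected log2 fold change of −0.05 (limma adjusted p = 0.712). The corrected log2 fold changes were −0.83 for MRPL1, −0.70 for MRPL47, −0.84 for MRPS18C, −0.86 for MRPL36 and −0.88 for MRPS23, all still called. MRPL13 moved to −0.50, MRPL50 to −0.62, MRPS28 to −0.36, MRPS9 to −0.38 and MRPS30 to −0.24, and these were still called. The corrected value was positive in 7 members, which were MRPL33, MRPS31, MRPS10, MRPS24, MRPS18B, MRPS17 and MRPS6, none of them called.

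**Figure D4:**
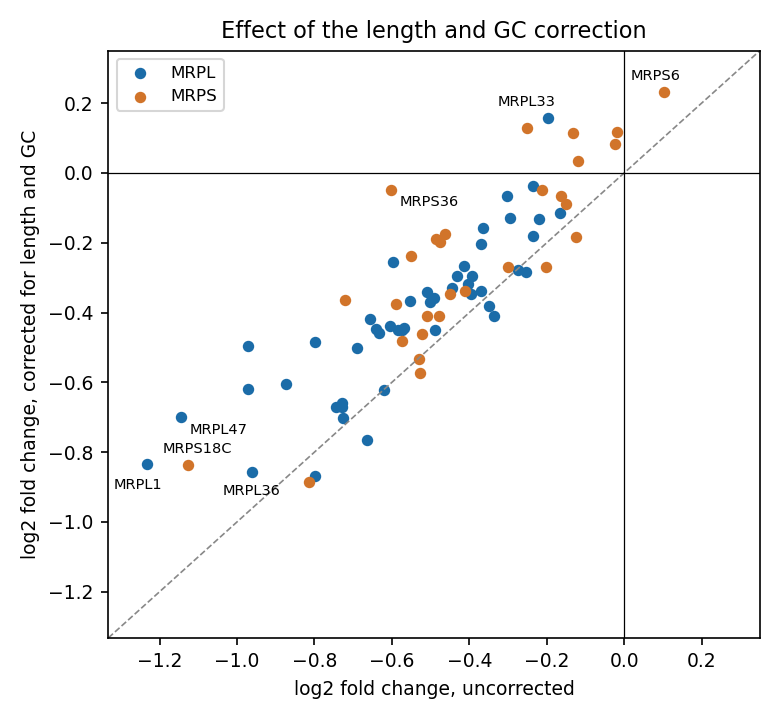
Log2 fold change of each member in CD104high against CD104low without (horizontal) and with (vertical) this correction. On the dashed line the correction changes nothing. Most members lie above it, so their falls are smaller after correction, and 7 members lie above 0.

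Promoter windows, 250 bases before to 50 after the start site in RefSeq on GRCh38.p14, were at hand for 68 of the 77 members, in 84 windows. They were searched on both strands for 4 words of factors known to act on nuclear genes of mitochondria or of growth. These were CCGGAAG for the ETS factor GABP, AAGATGG for YY1, GCATGCG for NRF1 and CACGTG, the E-box that MYC binds. Matches of different words may overlap, and a window counted once per word. The ETS word stood in 38.1% of member windows, against 10.3% of all 35116 windows and 15.9% of those of genes in the table. The YY1 word stood in 32.1%, against 5.84% and 6.69%. The NRF1 word stood in 8.33%, against 3.91% and 5.48%, and the E-box in 10.7%, against 7.26% and 9.04%.

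The 49 members with at least 1 word had a median log2 fold change of −0.48, with 40 called lower. The 19 with none had a median of −0.49, with 14 called lower. Over all genes tested, 21.6% were called lower. Called lower were 22 of 29 members with the ETS word and 18 of 24 with the YY1 word. For the NRF1 word it was 6 of 7, and for the E-box 9 of 9. Medians with and without the word were −0.43 and −0.50 for ETS and −0.51 and −0.48 for YY1. They were −0.61 and −0.48 for NRF1 and −0.53 and −0.48 for the E-box. Whether the words bear on the falls was not tested. The following stretches run from 90 bases before to 30 after the RefSeq start site, 5′ to 3′ on the gene's strand, with matched words in capitals, also where the reverse complement matched. In this stretch, which is shorter than the window searched, MRPL1 and MRPS18C, among the largest falls, hold no word. MRPL47, MRPL36 and MRPL3 fell and hold 1 or 2. MRPS10, MRPS18A and MRPS18B did not pass and hold 2 each. Among members not printed, MRPL50 and MRPS23 fell and hold 1 each. MRPS6, MRPS17, MRPS11, MRPS25 and MRPL44, also not printed, did not pass and hold none.
MRPL1 (chr4:77862740-77862859, plus strand): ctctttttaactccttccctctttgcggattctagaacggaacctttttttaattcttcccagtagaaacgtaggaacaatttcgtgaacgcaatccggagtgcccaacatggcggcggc
MRPS18C (chr4:83455968-83456087, plus strand): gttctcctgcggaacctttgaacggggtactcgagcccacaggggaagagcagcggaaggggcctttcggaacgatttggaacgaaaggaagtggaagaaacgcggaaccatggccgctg
MRPL47 (chr3:179604617-179604736, minus strand): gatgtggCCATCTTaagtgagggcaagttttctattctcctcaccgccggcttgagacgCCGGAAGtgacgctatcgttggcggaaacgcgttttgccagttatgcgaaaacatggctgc
MRPL36 (chr5:1799808-1799927, minus strand): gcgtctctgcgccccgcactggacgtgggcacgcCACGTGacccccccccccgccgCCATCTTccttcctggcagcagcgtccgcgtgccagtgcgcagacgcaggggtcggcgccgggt
MRPL3 (chr3:131502942-131503061, minus strand): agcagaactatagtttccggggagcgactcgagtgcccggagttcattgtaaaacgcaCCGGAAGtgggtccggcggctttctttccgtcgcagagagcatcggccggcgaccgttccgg
MRPS10 (chr6:42217832-42217951, minus strand): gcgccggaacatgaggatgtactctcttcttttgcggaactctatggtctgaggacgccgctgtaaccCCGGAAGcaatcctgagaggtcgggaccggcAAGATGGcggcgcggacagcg
MRPS18A (chr6:43687762-43687881, minus strand): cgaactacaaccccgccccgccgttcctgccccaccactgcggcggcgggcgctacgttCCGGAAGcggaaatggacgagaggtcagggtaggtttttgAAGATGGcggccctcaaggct
MRPS18B (chr6:30617750-30617869, plus strand): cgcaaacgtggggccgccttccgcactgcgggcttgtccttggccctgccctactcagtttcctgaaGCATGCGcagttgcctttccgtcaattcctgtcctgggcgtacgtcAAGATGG
MRPL47 and MRPS10 both show an ETS word and a YY1 word near the start, while their log2 fold changes were −1.15 and −0.13. A match in letters does not show that a factor binds there.

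Other genes that serve the mitochondrial ribosome were also counted, from lists chosen with earlier results of these data known. Of 5 mitochondrial ribosomal proteins with other symbols, 4 were lower and the median log2 fold change was −0.63. With the correction for length and GC content all 5 were lower and the median was −0.35. DAP3, the GTP-binding protein of the small subunit, averaged 5408 ± 112 scaled reads in CD104high and 7402 ± 268 in CD104low, with a log2 fold change of −0.45. GADD45GIP1, a large-subunit protein, averaged 5000 ± 1024 in CD104high and 9901 ± 1126 in CD104low, with a log2 fold change of −0.999. PTCD3, a pentatricopeptide protein of the small subunit, had −0.14 and did not pass (limma adjusted p = 0.0748).

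Of 28 assembly factors, 16 were lower, none was higher and the median log2 fold change was −0.28. C1QBP, a matrix protein needed for mitochondrial translation, averaged 12150 ± 2257 scaled reads in CD104high and 25747 ± 2947 in CD104low, with a log2 fold change of −1.09. MTERF3, which takes part in building the large subunit, had −0.89. Of 14 translation factors, 6 were lower, none was higher and the median was −0.26, with −0.52 for the elongation factor TUFM and −0.34 for GFM1.

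Of 25 genes that express and maintain the mitochondrial genome, 20 were lower, 1 was higher and the median log2 fold change was −0.45. TFAM, which packages mitochondrial DNA and starts its transcription, averaged 4955 ± 83.0 scaled reads in CD104high and 7713 ± 706 in CD104low, with a log2 fold change of −0.63. SLIRP, which stabilises mitochondrial messenger RNAs, had −1.06. PRORP, the nuclease that trims tRNA ends, was the gene that was higher, at 0.48 (limma adjusted p = 0.0268), and lost the call in 6 of 21 alternative settings. The RNAs of the mitochondrial genome itself were not analysed here.

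Of 11 transcriptional regulators of nuclear genes for mitochondria, 7 were lower and 3 higher. MYC averaged 5373 ± 359 scaled reads in CD104high and 8543 ± 584 in CD104low, with a log2 fold change of −0.67. GABPB1, a subunit of the ETS factor GABP, also had −0.67, while GABPA, its DNA-binding subunit, had −0.01 and did not pass. NRF1 and YY1, whose words were searched above, were lower at −0.31 and −0.24 (limma adjusted p = 0.00809 and 0.0230). The other lower genes were ESRRA (−0.40), PPRC1 (−0.36) and PPARGC1B (−0.66). GABPB2, which encodes another beta subunit of GABP, was higher at 0.34 (limma adjusted p = 0.0268). TFEB, a regulator of lysosomal genes, was higher at 0.75, and PPARGC1A, a coactivator of mitochondrial biogenesis, was higher at 1.27 from a low level of 143 ± 55.9 in CD104high and 56.2 ± 7.99 in CD104low. Over all genes tested, 21.6% were lower and 21.8% higher, which are the shares to set beside each of these counts. With the correction for length and GC content, 16 assembly factors were lower and 1 higher with a median of −0.29, and 6 translation factors were lower with a median of −0.18. Of the genes that express and maintain the mitochondrial genome, 19 were then lower and 1 higher with a median of −0.35, and of the regulators 7 were lower and 2 higher with a median of −0.44.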

How the data were processed

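RNA-seq libraries of 6 sorted samples were used. The tools listed in the submitters' processing notes are Salmon 1.3.0, DESeq2 and FastQC, and the build is GRCh38 (hg38), while annotation and model were not given. The authors' table holds, per the file headers, a scaled read signal for each gene in each library, their log2 fold change with SE, and their p-value before and after adjustment. In 100% of cases a deposited signal value was, within 0.01, a whole multiple of 1 step per library, and dividing by the step gave the recovered counts, used only for edgeR 4.0.16 and DESeq2 1.42.0 as alternatives.

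Genes that reached 10 in 3 or more samples were tested with limma 3.58.1 in R 4.3.3, with an intensity trend, on log2(value + 1), CD104high against CD104low, 3 libraries each. This scale understates changes of low genes. P-values were adjusted by Benjamini and Hochberg over all genes tested. Single differences between genes within a library were tested by exact permutation. The fit was tested on simulated data. The correction for length and GC content used natural splines with 5 degrees of freedom on the longest GENCODE 29 transcript of each gene. Levels per kilobase used the longest transcript that GENCODE 29 marks as principal. Some members have unusually long annotated transcripts, such as MRPL42 with 15582 bases by both choices, and their values depend on that annotation. Alternatives were other scalings, filters, pseudocounts and tools, a replicate block, and leaving out each library.

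Members and lists were chosen with earlier results of these data known. Values per sample are given for up to 6 members per subunit with the largest called changes, the highest per subunit, the members whose place differs from their symbol, the MRPS18 paralogs, and MRPL12, MRPL45 and MRPL58. In the other lists, up to 2 genes per direction with the smallest p are named, and any other gene named was chosen after its values were seen.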

Additional observations from a re-analysis of the deposited data

How the results depend on the processing

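Of the 60 members called lower, 45 were called lower in all 21 alternatives and 15 were lost in at least 1. Of the members that did not pass, 10 were called lower in at least 1. The same counts over all genes tested were not computed, so these give no comparison with other genes. When a library was left out, the count of lower members lay between 51, without CD104low replicate 1, and 61, without CD104low replicate 2 or CD104high replicate 3. The share of all genes tested that was called lower was 13.9%, 22.2% and 21.4% in these 3 settings. The count of lower members was 64 with TMM scaling, edgeR or DESeq2, against 23.09%, 22.93% and 23.35% of all genes in these settings. The median log2 fold change under these library exclusions lay between −0.55 and −0.44 for all members. With the correction for length and GC content the medians were −0.35 (all), −0.40 (MRPL) and −0.24 (MRPS). When the library means were not kept, the MRPS median was −0.32, and over all genes 3957 were lower and 2197 higher, against 3117 and 3140 uncorrected. MRPS10 turned to 0.1155 with the correction and 0.0362 without library means. MRPS18B turned to 0.0824 and 0.0031 in those settings, to 0.0021 with upper-quartile scaling and to 0.0166 with quantile normalization, never called. The cause was not tested. The labels do not say whether the replicate numbers pair the libraries, and the main fit used no pairing. The correlations of deviations from the population means were 0.08, 0.36 and 0.32 for replicates 1, 2 and 3. Every library correlated best with the one of its own number in the other population. With the replicate block 67 members were lower (45 MRPL and 22 MRPS), and the share over all genes was 26.55%, against 21.6% without it. With the block and the correction together, 58 members were lower, against 26.39% of all genes, and 1 was higher, MRPS6. The medians were again −0.35, −0.40 and −0.24, with MRPS10 at 0.1155 and MRPS18B at 0.0824. With 3 libraries per population, their spread limits the precision for each gene.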

Other observations

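3 genes with related symbols were not members. MRPL20-AS1, an antisense RNA beside MRPL20, averaged 884 ± 44.7 scaled reads in CD104high and 860 ± 30.7 in CD104low, with a log2 fold change of 0.04 that did not pass, while MRPL20 had −0.40 and was called. No source used here says whether counting was stranded, so reads of the pair may be shared. MRPS31P5, a pseudogene of MRPS31, averaged 28.4 scaled reads in CD104high and 22.2 in CD104low, with a log2 fold change of 0.50 (limma adjusted p = 0.449). MRPS9-AS1 averaged 2.12 in CD104high and 4.45 in CD104low, under the filter on low values, and was not tested.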
